A study of Homo sapiens with 21 samples.

Results

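These data describe what an siRNA against APE1 did to gene expression in A549 cells that were also treated with trichostatin A (TSA). A549 is a human lung adenocarcinoma line. The 3 arrays of TSA-treated APE1 siRNA cells were set against the 3 arrays of TSA-treated control cells, out of 21 arrays in the whole series, and the result was read across all 19775 genes whose probe sets carry a single symbol. Control cells received a control siRNA, and both groups received TSA at 100 ng/ml for 4 h before RNA was prepared, so TSA was shared and the siRNA was the difference between them. The labels call the 3 arrays of a group biological replicates. Arrays of the same 2 siRNA arms without TSA (3 and 3) were used only to ask whether the effect was the same there. As a model of APE1 loss the design has limits: the study used several APE1 siRNAs but gives only 1 of them for the arrays, and the treated cells are 1 line, so within these arrays effects of that siRNA on other transcripts and effects of APE1 loss cannot be told apart.

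APE1, encoded by APEX1, is the main enzyme that cuts DNA at abasic sites during base excision repair, in which a damaged base is removed, the strand is opened and the gap is filled. It is also known as Ref-1, a factor that keeps transcription factors such as AP-1, NF-kB and p53 in a reduced, DNA-binding state, and it can act as a coactivator or corepressor on promoters. TSA inhibits zinc-dependent histone deacetylases and so raises acetylation of histones and of other proteins, APE1 among them; the study used it to raise acetylated APE1 and then asked which genes depend on it.

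The values are log2 RMA values, a log2 scale on which a difference of 1 is a 2-fold change. Over the 54613 probe sets tested, arrays correlated at 0.9968 to 0.9973 within the TSA-treated control group and at 0.9954 to 0.997 within the TSA-treated APE1 siRNA group, against 0.9897 to 0.9937 between the groups. The 45 spike-in probe sets, which report hybridization and labelling rather than the cells, differed between the groups by -0.466 to 0.17. RNA integrity was read from the difference of 3′ and 5′ probe sets. For ACTB this was 0.536, 0.870 and 0.794 in the controls and 0.966, 0.898 and 1.05 after APE1 siRNA, so all 3 siRNA arrays lay above the controls (exact permutation test, two-sided p = 0.1, the smallest that 3 against 3 allows). For GAPDH, which is itself among the genes described below, it was 0.0913, 0.0409 and 0.115 against 0.475, 0.707 and 0.687 (exact permutation test, two-sided p = 0.1). What part this had in the results was not tested. Of the A549 and epithelial markers, KRT18 and AKR1B10 were higher and the other 8 of 10 were not called; of the markers of alveolar type 2, ciliated, airway basal, endothelial and leukocyte cells and of fibroblasts (8, 6, 5, 8, 6 and 8 measured), 0 were called by limma and 0 had an unadjusted p under 0.05. In the untreated arms, the array of APE1 siRNA replicate 2 stood apart, with a correlation of 0.896 and 0.8952 with its 2 replicates, which correlated with each other at 0.9979. It has no part in the comparison under TSA, and statements on untreated cells are given without it, and with it where it matters.

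A gene was called when its adjusted p in limma was under 0.05 and the higher group mean exceeded the lower by at least 25% on the linear scale. Of the 19775 genes, 815 (4.12%) were higher after APE1 siRNA and 1198 (6.06%) were lower, 2013 (10.2%) in all. The falls were also the larger: 111 genes (0.561%) fell by at least 2-fold, while 41 (0.207%) rose by as much. The median log2 difference over all genes was 0.025 and the median size of a called difference was 0.48. In all 2013 called genes the 3 arrays of one group lay beyond the 3 of the other, which was also true of 35% of all genes. Remarks below that the groups of a called gene were separate therefore add nothing to its call. Calls depended on level. Among the 10932 genes with a mean log2 of at least 7, 6.93% were higher and 9.68% lower, and among the 2493 genes with a mean under 5 these shares were 0.281% and 0.441%. A share of members of a gene list should therefore be read against the former pair, since most members are well expressed. The lists were chosen with earlier results of these data known, so a share above that pair is a description and not independent support. In such bulk samples, fewer cells of a kind and less RNA in each cell cannot be told apart.

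**Figure D1:**
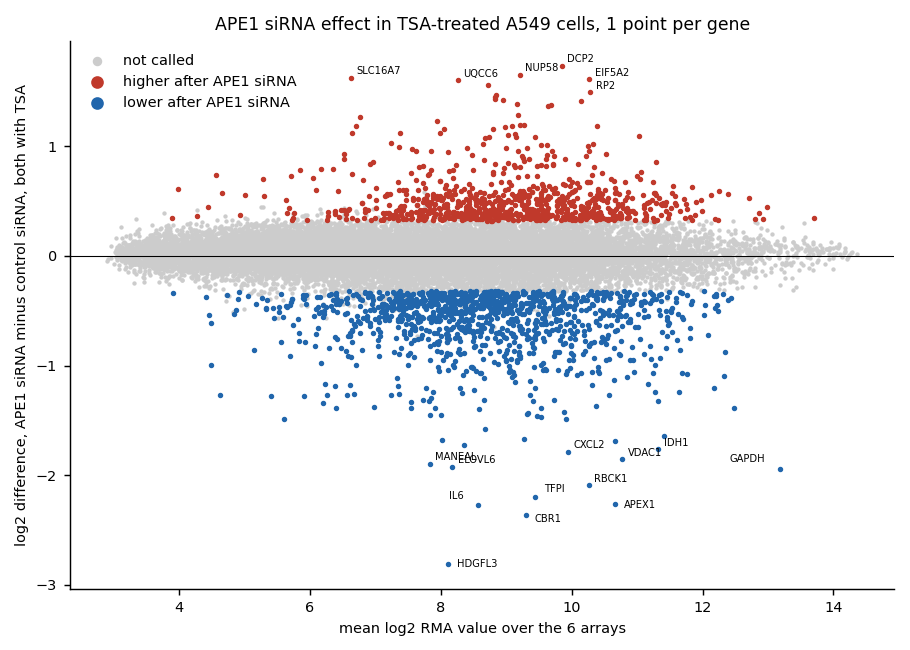
Log2 difference between TSA-treated APE1 siRNA and TSA-treated control cells against the mean log2 value over the 6 arrays, 1 point per gene, with the 815 higher genes in red and the 1198 lower genes in blue. Falls reach further from 0 than rises, down to -2.81 for HDGFL3 against 1.73 for DCP2, and calls are few below a mean of 7.

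The targeted transcript was down. APEX1 read 11.85, 11.78 and 11.77 on the control arrays and 9.53, 9.53 and 9.55 on the siRNA arrays, which did not overlap. That is 4.81-fold lower (log2 difference -2.26, SE 0.061, adjusted p = 2.03e-06). APEX1 lies on chromosome 14 and was read by a single probe set. Of the 22 measured genes of base excision repair, APEX1 and TDG, a thymine DNA glycosylase (-0.42, adjusted p = 0.00883), fell, 0 rose and 20 were not called. The lower share, with the siRNA target counted in, was 9.09%, against 9.68% of genes with a mean log2 of at least 7. The list's median was 0.033 beside 0.025 over all genes. Among those not called were POLB, the repair polymerase (0.22, adjusted p = 0.0729), XRCC1, its scaffold (0.12, adjusted p = 0.414), and OGG1, the 8-oxoguanine glycosylase, at -0.30 (adjusted p = 0.0226), which missed the fold limit.

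APEX1 was not the gene that fell most. HDGFL3, a member of the hepatoma-derived growth factor family, read 9.50, 9.58 and 9.46 in the controls and 7.05, 6.70 and 6.37 after APE1 siRNA. The siRNA arrays spread over more than the controls did but stayed far below them (-2.81, SE 0.15, adjusted p = 1.47e-05), and 2 further probe sets of the gene gave -2.57 and -2.41. CBR1, a carbonyl reductase that reduces quinones and other carbonyls with NADPH, read 10.38, 10.64 and 10.41 against 8.10, 7.998 and 8.26, a 5.14-fold difference (-2.36, SE 0.096, adjusted p = 6.81e-06). RBCK1, also called HOIL-1 and a subunit of the linear ubiquitin ligase LUBAC, read 11.22, 11.29 and 11.40 against 9.22, 9.35 and 9.07 (-2.09, SE 0.088, adjusted p = 7.2e-06). For all 3 genes the groups were separated by a gap several times the spread within either.

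GAPDH, the glycolytic dehydrogenase that is often taken as a reference transcript, was among the largest falls. It read 14.13, 14.18 and 14.15 in the controls and 12.23, 12.17 and 12.22 after APE1 siRNA (-1.94, SE 0.061, adjusted p = 2.91e-06). Each of its 3 probe sets was lower by a similar amount, -1.94 to -2.06. ACTB, the other common reference, was at -0.12 (adjusted p = 0.304), and HPRT1, the study's own reference gene, at 0.11 (adjusted p = 0.390), and neither was called. Of 14 housekeeping genes, 3 were lower (GAPDH, YWHAZ at -0.94 and TUBB at -0.54) and POLR2A was higher (0.50).

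The other 7 of the 12 largest falls were IL6 (-2.27), TFPI, an inhibitor of tissue factor (-2.20), ELOVL6, an elongase of long-chain fatty acids (-1.92), MANEAL, an endomannosidase-like protein (-1.90), VDAC1, the main channel of the outer mitochondrial membrane (-1.85), CXCL2, a neutrophil chemokine (-1.79), and IDH1, the cytosolic isocitrate dehydrogenase (-1.76). VDAC1 read 11.84, 11.59 and 11.67 in the controls and 9.89, 9.78 and 9.87 after APE1 siRNA, and its other 2 probe sets were called lower too. IDH1 read 12.26, 12.16 and 12.20 against 10.43, 10.36 and 10.53. In both genes no siRNA array came within 1 log2 unit of a control array.

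The 12 largest rises were smaller than the 12 largest falls. DCP2, the enzyme that removes the 5′ cap of mRNA, read 9.01, 8.91 and 9.02 in the controls and 10.77, 10.69 and 10.69 after APE1 siRNA, so the groups were far apart (1.73, SE 0.065, adjusted p = 4.99e-06). EIF5A2, a relative of the translation factor eIF5A, read 9.45, 9.40 and 9.55 against 11.08, 11.004 and 11.14 (1.61, SE 0.071, adjusted p = 8.48e-06). SLC16A7, a monocarboxylate transporter, read 5.71, 5.71 and 6.02 against 7.52, 7.61 and 7.18 (1.62). UQCC6, an assembly factor of respiratory complex III, rose by 1.60, KLHL2, a kelch-like adaptor of a ubiquitin ligase, by 1.56, RP2, which acts on the GTPase ARL3, by 1.49, and NIPA1, a magnesium transporter, by 1.47. IL1RAP, the shared signalling chain of the IL-1 receptor family, rose by 1.45, the aquaglyceroporin AQP3 by 1.43, and PTK2, the focal adhesion kinase FAK, by 1.41. The remaining 2 were NUP58, a nucleoporin (1.65), and HMGA2, an architectural chromatin protein (1.42). They were higher at their brightest probe set but not by the mean of their probe sets, which gave 0.25 and 0.083. Dimmer probe sets of HMGA2 were called lower, at -0.35 and -0.43.

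**Figure D2:**
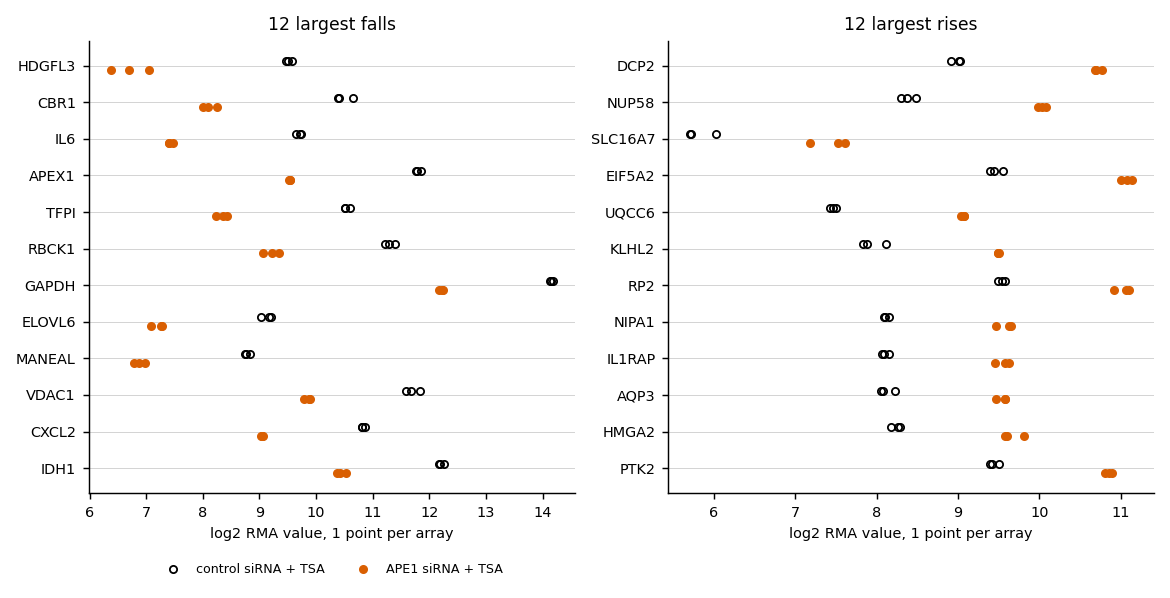
Log2 RMA value on each array for the 12 largest falls (left) and the 12 largest rises (right), with the 3 TSA-treated control arrays as open circles and the 3 TSA-treated APE1 siRNA arrays as filled circles. The 24 genes were chosen among called genes with separate groups, so their groups do not overlap by rule.

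Several cytokines and chemokines of the NF-kB programme were lower. NF-kB dimers are released from their inhibitors by signals such as IL-1 and TNF and switch on inflammatory genes, and in lung epithelial cells IL6 and the CXCL chemokines are well known targets. Of 29 measured NF-kB targets and subunits, 8 were lower (27.6%, against 9.68% of expressed genes) and 0 higher; the list's median was -0.013, near that of all genes, so the change was one of a few members and not of the list. IL6 read 9.64, 9.74 and 9.72 in the controls and 7.41, 7.41 and 7.47 after APE1 siRNA (4.82-fold lower, log2 difference -2.27, SE 0.062, adjusted p = 2.03e-06). CXCL2 read 10.82, 10.86 and 10.81 against 9.04, 9.06 and 9.03 (-1.79, SE 0.059, adjusted p = 2.91e-06), and CXCL3, its close relative, 10.21, 10.31 and 10.29 against 8.83, 8.81 and 8.75 (-1.47, SE 0.064, adjusted p = 7.2e-06). These 3 genes were almost constant within a group, and the groups were more than 1 log2 unit apart. LIF, a cytokine of the IL-6 family, was lower by less (-0.89), as were CXCL1 (-0.63), TNFAIP3, the ubiquitin-editing brake of the pathway known as A20 (-0.48), the subunit gene REL (-0.40) and the chemokine CCL20 (-0.33). CXCL8, the interleukin-8 gene, was at 0.025 (adjusted p = 0.885), and NFKBIA, the inhibitor that NF-kB itself induces, at -0.19 (adjusted p = 0.212). CXCL1, CXCL2 and CXCL3 are closely related in sequence, so their probe sets may share signal. In a fit that also held the untreated arrays with the outlying one, IL6 and CXCL3 were not called (adjusted p = 0.138 and 0.0533). Their log2 differences were the same, and 5 of the 29 list members were lower. A fit of 11 arrays, without the outlying one, called 9 lower and 0 higher.

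The chemokine promoters are shown because they hold the letters of a known NF-kB site close to the start. The motif searched was GGGNNTTTCC on either strand, a common form of the NF-kB site, in the 300 bases around each start in RefSeq (GRCh38.p14). It was found in 11 of the 24 list members with a promoter in the table, 7 of them lower, which are all the lower members that have one (LIF has none there), and 4 not called, against 523 of all 27305 promoters (1.92%) and 318 of the 15384 promoters of genes read (2.07%). The list was built of NF-kB targets, so this share was to be found in it whether or not its members changed. Of promoters of all lower genes, list members included, 2.4% held it, and of those lower by more than 2-fold 4.3% (4 of 93). These 4 include IL6, CXCL2 and CXCL3 from the list, so that share is not independent of it. Of promoters of higher genes 1.67% held it. Below are the 150 bases before the start of 6 of the lower members, 5′ to 3′ in the direction of transcription, with the motif in capitals.
IL6 (chr7:22727050-22727199, + strand): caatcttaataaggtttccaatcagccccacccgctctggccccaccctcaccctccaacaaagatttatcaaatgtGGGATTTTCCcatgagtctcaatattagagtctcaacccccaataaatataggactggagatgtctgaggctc
CXCL1 (chr4:73869243-73869392, + strand): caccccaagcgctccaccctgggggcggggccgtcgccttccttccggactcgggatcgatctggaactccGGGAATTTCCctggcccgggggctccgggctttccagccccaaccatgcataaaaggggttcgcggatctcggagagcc
CXCL2 (chr4:74099196-74099345, - strand): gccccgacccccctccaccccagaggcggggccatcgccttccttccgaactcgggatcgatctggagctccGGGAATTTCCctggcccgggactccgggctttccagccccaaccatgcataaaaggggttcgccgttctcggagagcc
CXCL3 (chr4:74038690-74038839, - strand): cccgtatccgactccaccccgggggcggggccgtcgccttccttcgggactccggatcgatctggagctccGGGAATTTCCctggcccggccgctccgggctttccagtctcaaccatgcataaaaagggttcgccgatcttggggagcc
CCL20 (chr2:227813692-227813841, + strand): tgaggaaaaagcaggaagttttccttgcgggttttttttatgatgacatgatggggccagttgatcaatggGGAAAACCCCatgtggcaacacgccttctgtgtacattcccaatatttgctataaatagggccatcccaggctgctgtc
TNFAIP3 (chr6:137867109-137867258, + strand): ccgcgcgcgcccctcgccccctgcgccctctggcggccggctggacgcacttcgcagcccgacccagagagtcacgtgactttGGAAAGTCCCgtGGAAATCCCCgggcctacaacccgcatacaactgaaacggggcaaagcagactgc
The motif begins 73 bases before the start in IL6, 79 in CXCL1 and CXCL3, 78 in CXCL2 and 79 in CCL20. TNFAIP3 has 2 copies, 67 and 55 bases before. In CCL20 and in both copies of TNFAIP3 it lies on the other strand. CXCL1, CXCL2 and CXCL3 carry the identical GGGAATTTCC, yet their log2 differences were -0.63, -1.79 and -1.47. A match of letters is a description of the promoter and not a bound site.

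Genes of the linear ubiquitin ligase and of IL-1 and IL-6 family signalling gave a mixed picture. Of 8 genes of the linear ubiquitin ligase and its deubiquitinases, RBCK1 and SHARPIN (-0.34, adjusted p = 0.0106), 2 of the ligase's 3 subunits, were lower, and RNF31, the catalytic subunit HOIP, was at 0.15 (adjusted p = 0.416). Of 15 genes of IL-1 and IL-6 family signalling, 4 were higher and 1 lower. The higher ones were IL1RAP, LIFR, the receptor chain for LIF (0.84), the cytokine IL11 (0.81) and STAT3, the transcription factor that these cytokines activate (0.59), and the lower one was IL1R1, the IL-1 receptor (-0.46). The cytokines IL6 and LIF themselves, both lower, were counted with the NF-kB targets and not in this list. IL1RAP read 8.06, 8.15 and 8.09 in the controls and 9.45, 9.62 and 9.57 after APE1 siRNA, without overlap, as in every called gene. LIFR was not called by the mean of its probe sets (0.21).

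Several growth factor and ERK feedback genes were lower as well. ERK, the kinase at the end of the EGF receptor pathway, induces immediate early transcription factors and also the phosphatases and Sprouty proteins that switch it off. Of 31 such genes, 8 were lower (25.8%) and 1 higher, KLF2 (0.40); the median was -0.13. EGR3, an early growth response factor, read 7.18, 7.02 and 7.42 in the controls and 6.11, 5.96 and 5.74 after APE1 siRNA (-1.27, SE 0.12, adjusted p = 0.000281). DUSP4, a phosphatase of nuclear ERK, read 10.10, 10.32 and 10.31 against 9.36, 9.37 and 9.36 (-0.88, SE 0.076, adjusted p = 0.000177). The groups were separate for both. PHLDA1 (-0.75), SPRY2 (-0.75), MYC (-0.70), DUSP5 (-0.68), SPRED1 (-0.67) and DUSP7 (-0.56) were the other lower members. Of 12 EGF family ligands and receptors, the ligands EREG, NRG1 (-0.64) and TGFA (-0.35) were lower and the receptor ERBB3 was higher (0.47), while EGFR was at -0.11 (adjusted p = 0.610). EREG, or epiregulin, read 11.93, 11.88 and 11.89 against 10.64, 10.65 and 10.70 (-1.24, SE 0.06, adjusted p = 1.15e-05), and a second probe set was lower too. Among 14 AP-1 subunits, FOSL1 (-0.64) and FOSB (-0.51) were lower and MAFF was higher (0.65), and JUN (0.20, adjusted p = 0.105) and FOS (-0.15, adjusted p = 0.343) were not called.

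The called genes of cyclic AMP and G protein signalling were all lower. Phosphodiesterases break down the second messenger cyclic AMP, and G alpha subunits carry the signal from receptors. Of 20 such genes 6 were lower (30%, against 9.68% of expressed genes) and 0 higher (against 6.93%), and the median was -0.19. GNAQ, the alpha subunit that activates phospholipase C, read 9.20, 9.37 and 9.08 in the controls and 7.49, 7.50 and 7.47 after APE1 siRNA (-1.73, SE 0.082, adjusted p = 1.15e-05), and a second probe set gave -2.29. PDE4B read 7.94, 7.92 and 7.97 against 6.95, 6.62 and 6.72 (-1.19, SE 0.089, adjusted p = 8.26e-05). In both genes the groups were separate. PDE8A (-0.81), PDE4D (-0.75), PDE4A (-0.54) and GNAI2 (-0.36) made up the rest. Apart from this list, TFPI read 10.52, 10.59 and 10.50 against 8.42, 8.35 and 8.24 (-2.20, SE 0.071, adjusted p = 2.91e-06) at its brightest probe set, but a second probe set gave -0.56, so the size of its fall depended on the probe set. Of the 25 coagulation and complement genes, TFPI and C3 (-0.48) were lower and PLAUR (0.40) and CD46 (0.52) higher. By the mean of the probe sets of a gene 0 of the 25 were higher and 4 lower. In the fit with all 12 arrays 1 was higher and 1 lower, and in that of 11 arrays 2 and 2.

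Several genes that license and fire replication origins were higher. Before S phase, ORC, CDC6 and CDT1 load the MCM helicase onto DNA, and E2F factors, released by cyclin-dependent kinases, induce these genes. Of 38 DNA replication genes, 10 were higher (26.3%, against 6.93% of expressed genes) and 2 lower, and the list's median was 0.19 beside 0.025 over all genes. CDC6 read 8.96, 8.94 and 8.95 in the controls and 9.71, 9.68 and 9.66 after APE1 siRNA (0.73, SE 0.059, adjusted p = 0.000118), and its second probe set was higher as well. MCM5, a helicase subunit, read 9.09, 9.12 and 9.06 against 9.66, 9.72 and 9.78 (0.64, SE 0.064, adjusted p = 0.000369). For both, every siRNA array lay above every control array. MCM10, a firing factor (0.67), CDT1 (0.55), the clamp loader subunits RFC5 (0.52) and RFC4 (0.50), ORC6 (0.43), MCM3 (0.38), the polymerase POLD1 (0.38) and TYMS, thymidylate synthase (0.32), were the other higher members, and GINS1 (-0.47) and POLA1, the catalytic subunit of polymerase alpha, (-0.42) were lower. PCNA, the sliding clamp, was at 0.16 (adjusted p = 0.174). In the fit with all 12 arrays, which takes in the outlying one, 3 of the list were higher and 0 lower. In the fit of 11 arrays without it, 10 were higher and 2 lower.

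The regulators of the G1 to S transition moved both ways, with 7 of 28 higher and 5 lower and a median of 0.017. E2F7, an E2F family repressor, read 8.62, 8.66 and 8.80 in the controls and 9.64, 9.71 and 9.60 after APE1 siRNA (0.96, SE 0.073, adjusted p = 9.04e-05). CDC25A, the phosphatase that activates CDK2, was higher by 0.78, with CCNE2 (0.37), CCND1 (0.36), CCNE1 (0.35) and E2F1 (0.33). CDK6 was higher by 0.83 at its brightest probe set, and 0 of its other 6 probe sets were called. CDK2 itself, the kinase of S phase, was lower, at 10.08, 9.88 and 9.92 against 9.26, 9.08 and 9.20 (-0.78, SE 0.08, adjusted p = 0.000430), as were MYC, E2F8 (-0.69), cyclin A2 or CCNA2 (-0.48) and E2F3 (-0.42). The number of higher members was 4 without TSA-treated control replicate 1 and 2 when all probe sets of a gene were averaged. It was 1 in the fit with all 12 arrays, which called 3 lower. The fit of 11 arrays called 7 higher and 6 lower. The letters TTTNNCGC, a core of the E2F site, stood on either strand in the 300-base window of 19 of 32 replication genes with a promoter in the table, in 8.7% of the promoters of genes read, and in 10.6% of those with a mean log2 of at least 7. Replication genes are E2F targets as a class, so this share was to be found whether or not they changed. Of the 19, CDC6, CDT1, MCM3, ORC6, RFC5 and TYMS were higher, GINS1 and POLA1 were lower, and the rest were not called. As an example of each kind, CDT1, an origin licensing factor, and CDC25A, a G1 regulator, are shown over the 150 bases before the start with the letters in capitals.
CDT1 (chr16:88803639-88803788, + strand): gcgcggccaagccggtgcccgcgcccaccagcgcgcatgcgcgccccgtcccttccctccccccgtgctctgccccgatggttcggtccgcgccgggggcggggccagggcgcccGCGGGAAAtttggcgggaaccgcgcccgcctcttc
CDC25A (chr3:48188418-48188567, - strand): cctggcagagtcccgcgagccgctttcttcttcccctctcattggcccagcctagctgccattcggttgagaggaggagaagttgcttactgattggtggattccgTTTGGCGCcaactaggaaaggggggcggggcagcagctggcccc

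Mitotic genes were mostly not called. Of 34, CDC25B (0.51), the checkpoint kinase BUB1 (0.59) and CDK1 (0.41) were higher and topoisomerase TOP2A (-0.72) and the kinesin KIF20A (-0.52) lower, and the proliferation marker MKI67 was at 0.21 (adjusted p = 0.147). Of 31 genes of other DNA repair pathways, 4 were higher and 0 lower. They were the exonuclease EXO1 (0.52), FANCL, the ubiquitin ligase of the Fanconi pathway (0.51), the checkpoint kinase CHEK1 (0.40) and the mismatch repair gene MSH6 (0.32). In the fit with all 12 arrays 1 of the 31 was higher, and in that of 11 arrays 4. Of 21 p53 targets, PMAIP1 or NOXA (0.68) and ZMAT3 (0.58) were higher and TP53I3 (-0.40) and BAX (-0.38) lower, and CDKN1A, the p21 gene, was at -0.22 (adjusted p = 0.0671). With all 12 arrays all 4 of these p53 targets lost their call, while the fit of 11 arrays called 2 higher and 2 lower. Among 26 BCL2 family and apoptosis genes 3 were higher (PMAIP1, BCL2L11 at 0.38 and CASP2 at 0.34) and 4 lower (CASP8 at -0.58, BIK at -0.50, CFLAR at -0.48 and BAX).

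Since TSA acts on protein acetylation, the acetylation enzymes were read as a group. Of 13 lysine acetyltransferases 5 were lower (38.5%) and 1 higher, with a median of -0.16. KAT2B, also called PCAF, read 8.63, 8.65 and 8.80 in the controls and 7.88, 7.87 and 7.70 after APE1 siRNA, groups that did not overlap (-0.87, SE 0.08, adjusted p = 0.000230). KAT6B (-0.56), KAT5 or TIP60 (-0.47), NCOA2 (-0.44) and KAT6A (-0.37) were the other lower members and HAT1 was higher (0.35). EP300, the gene of the p300 acetyltransferase, was at -0.25 (adjusted p = 0.0872) and CREBBP at -0.16 (adjusted p = 0.149). In the fit with all 12 arrays 2 of the 13 were lower, and in that of 11 arrays 5. Of 18 histone deacetylases and sirtuins, HDAC9 (-0.46) was lower and SIRT4 (0.56) higher. Of 15 genes known to respond to deacetylase inhibitors, TXNIP, an inhibitor of thioredoxin (-0.66), was lower and GADD45B (0.56) and KLF2 higher. Among 19 histone variants and HMG proteins, HMGA2, at its brightest probe set only, and H1-2 (0.52) were higher and HMGN4 (-0.51) and HMGN2 (-0.45) lower. MACROH2A1, a histone variant that the study names, was at 0.017 (adjusted p = 0.912) at its brightest probe set, while 2 of its other 6 probe sets were called lower, at -0.44 and -1.38.

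In metabolism the large changes were single enzymes and transporters. Of 24 genes of glycolysis and lactate transport, GAPDH was lower and SLC16A7 and SLC2A3, the glucose transporter GLUT3, higher. SLC2A3 read 9.73, 9.73 and 9.93 in the controls and 10.94, 10.96 and 11.03 after APE1 siRNA (1.18, SE 0.076, adjusted p = 3.82e-05). Of 21 hypoxia response genes 6 were higher (28.6%), led by the ER oxidase ERO1A (1.02), and 3 lower, VEGFA (-0.75), the mitophagy receptor BNIP3L (-0.69) and CA12 (-0.40), with a median of 0.036. In the fit with all 12 arrays 1 of the 21 was higher and 2 were lower, and in that of 11 arrays 6 and 3. Of 20 TCA cycle and isocitrate dehydrogenase genes, SUCLG2 (0.67), SUCLA2 (0.38) and PC (0.35) were higher and IDH1 and DLAT (-0.42) lower. IDH2, the mitochondrial relative of IDH1, was at -0.11 (adjusted p = 0.463), and VDAC2, the relative of VDAC1, at 0.046 (adjusted p = 0.748). Of 36 respiratory chain genes the assembly factors UQCC6 and UQCC3 (0.34) were higher and 0 lower.

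Both chains of a large amino acid transporter were lower. SLC7A5, or LAT1, and its heavy chain SLC3A2 import large neutral amino acids. SLC7A5 read 13.24, 13.14 and 13.13 in the controls and 11.78, 11.72 and 11.86 after APE1 siRNA (-1.39, SE 0.068, adjusted p = 1.17e-05), and SLC3A2 was at -0.95. Of the 30 genes that respond to ATF4 and amino acid supply, these 2 with DDIT4 (-0.40), the cystine transporter SLC7A11 (-0.36) and WARS1 (-0.32) were lower and VLDLR (0.37) was higher, and ATF4 was at -0.10 (adjusted p = 0.470). Of 33 NRF2 targets and redox enzymes 5 were lower, CBR1, SRXN1 (-0.51), KEAP1, the sensor of the pathway (-0.44), NFE2L2, the gene of NRF2 (-0.43), and catalase or CAT (-0.36), and 2 higher, ABCC3 (0.41) and AKR1B10 (0.32), while the classical targets NQO1 (-0.13, adjusted p = 0.251) and HMOX1 (-0.13, adjusted p = 0.352) were not called. In the fit with all 12 arrays both lists came down to 1 lower and 0 higher, while with 11 arrays both kept their counts. Of 22 fatty acid genes, ELOVL6 read 9.03, 9.16 and 9.20 against 7.09, 7.29 and 7.25 and ELOVL4, which extends very long chains, was higher by 0.75, with ACSL4 (-0.77) and TECR (-0.33) lower. Of 24 cholesterol genes, ABCG1, a cholesterol exporter (0.66), STARD4 (0.58) and HMGCS1 (0.46) were higher and EBP (-0.75) lower.

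Some RNA decay genes were lower while DCP2 was higher. Of 23 genes of decapping, deadenylation and decay, 7 were lower (30.4%), from -0.33 for UPF2, a nonsense-mediated decay factor, to -0.93 for PARN, a deadenylase, and DCP2 alone was higher. CNOT8 (-0.43), DCP1A, the partner of DCP2 (-0.37), CNOT1 (-0.35), CNOT2 (-0.33) and EDC3 (-0.33) were the others, and all but PARN were no lower than -0.43. CNOT1 was called in the other direction at a dimmer probe set (0.33). The number of lower decay genes fell to 3 when control replicate 3 or siRNA replicate 2 was left out. It fell to 1 in the fit with all 12 arrays and stayed at 7 in that of 11 arrays. In the small RNA silencing machinery of 12 genes, AGO4 (0.81), TNRC6A (0.48) and TNRC6B (0.44) were higher. AGO2, the member that cleaves its target RNA, was lower by more than any of these rose, at 7.15, 7.39 and 7.15 in the controls and 6.33, 6.28 and 6.51 after APE1 siRNA (-0.85, SE 0.092, adjusted p = 0.000567). By the mean of the probe sets of a gene 0 of the 12 were higher and 1 lower, and AGO4 was at 0.20. Of 25 nuclear pore genes NUP58, NUP50 (0.44) and NUP88 (0.37) were higher and 0 lower, while by the mean of probe sets 0 were higher and 2 lower, and of 20 translation genes EIF5A2 was higher and EIF5B (-0.44) and EIF5 (-0.36) lower.

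Genes of cell shape and signalling at the membrane moved in both directions. SFN, the epithelial 14-3-3 sigma (-0.41, adjusted p = 0.00455), and YWHAH, another 14-3-3 protein (-0.48), were lower. RAC1, a GTPase of membrane ruffling, read 12.81, 12.75 and 12.78 in the controls and 11.91, 11.87 and 11.95 after APE1 siRNA (-0.87, SE 0.061, adjusted p = 6.14e-05), with no overlap. Among 22 integrin and focal adhesion genes PTK2, ITGA2 (0.91) and ITGA1 (0.56) were higher and LAMC1 (-0.73) lower, and among 22 epithelial junction and keratin genes CLDN12 (1.17), KRT80 (0.51), KRT18 (0.48) and PKP2 (0.43) were higher and occludin or OCLN (-0.59) lower. Of 31 matrix and mesenchymal genes 5 were lower, led by the repressor ZEB2 (-1.19) and the inhibitor TIMP2 (-0.84), and 3 higher, led by COL4A1 (0.76). YAP and SRF targets gave 5 lower, led by the kinase LATS2 (-0.83), and 2 higher of 24, and SMAD and ID genes gave 5 lower, led by SMAD5 (-1.07) and TGFB2 (-1.05), and 1 higher of 24. The lower shares of these 3 lists were 16.1%, 20.8% and 20.8%, against 9.68% of expressed genes. The higher shares were 9.68%, 8.33% and 4.17%, against 6.93%. In the fit with all 12 arrays they had 4, 3 and 2 lower and 0, 1 and 1 higher. With 11 arrays they had 5, 5 and 5 lower and 3, 2 and 1 higher.

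Lists with few or balanced calls completed the survey. Interferon-stimulated genes had 3 higher and 3 lower of 33, among them IFI16, a DNA sensor (-0.43), and GBP3 (0.55). Unfolded protein response genes had 2 higher of 21, the sensors ATF6 (0.60) and ERN1 (0.56), and cytosolic heat shock genes had 1 lower of 14, DNAJB1 (-0.76). Mitochondrial channels and carriers had VDAC1 lower and SLC25A13 (0.40) higher of 20. The 14 metallothionein and zinc transporter genes had SLC39A6 (-0.53) and SLC30A1 (-0.35) lower, and the 15 aquaporins and ion channels had only AQP3 called.

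**Figure D3:**
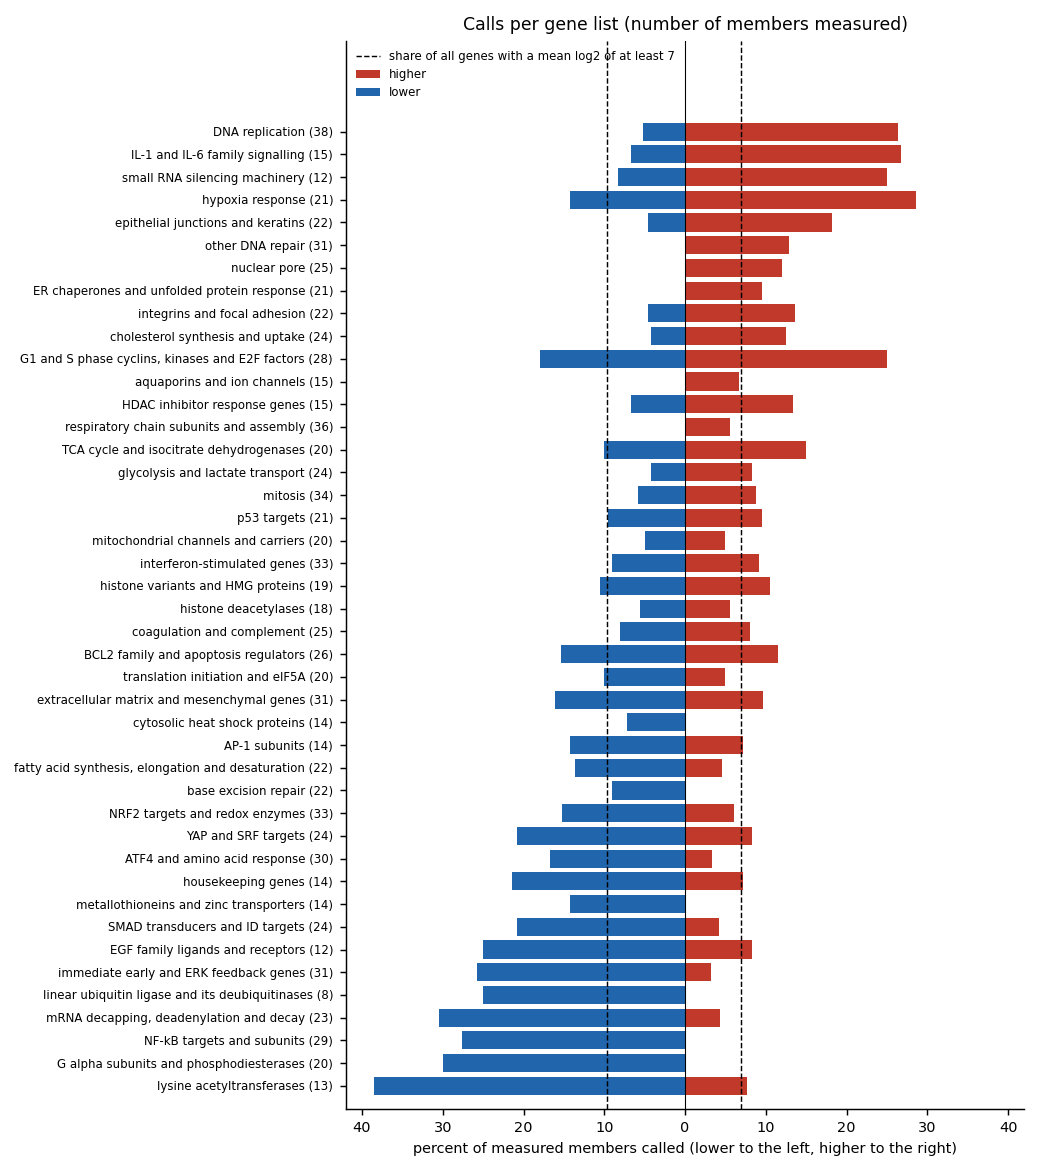
Percent of the measured members of each of 43 gene lists that were called lower (blue, to the left) or higher (red, to the right) after APE1 siRNA under TSA, with the number measured in brackets. Dashed lines mark the shares among all genes with a mean log2 of at least 7, 9.68% lower and 6.93% higher; short lists move far with 1 or 2 genes.

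The same siRNA without TSA gave a related but not identical set of changes. Without the outlying array, 967 genes were higher and 856 lower in untreated cells. Of the genes higher under TSA 61.1% were also higher without it (498 genes, 51.5% of the 967), and of the genes lower under TSA 51.2% were also lower without it (613 genes, 71.6% of the 856). APEX1 fell in both (-2.26 and -2.08), as did CBR1 (-2.36 and -2.41) and SLC7A5 (-1.39 and -1.52). Differences between the 2 effects were tested as an interaction over 11 arrays. The effect under TSA was more negative for 275 genes (1.39%) and more positive for 83 (0.42%). Among the 1198 genes lower under TSA, 159 had a more negative effect there and 8 a more positive one. The count rests on the untreated arrays: with all 12 arrays it was 19 and 4, and leaving out untreated siRNA replicate 1 or 3 left 100 and 18 or 73 and 14. Spike-in probe sets were themselves lower with TSA than without it in the controls by a median of -1.11, so the treated and untreated arrays differed technically too, and the difference of the 2 siRNA effects in them was -0.534 to 0.175. What part this had in the interaction was not tested.

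Several of the inflammatory and growth factor genes named above belonged to this group. CXCL3 read 10.81, 10.62 and 10.80 on the untreated control arrays and 10.74 and 10.71 on untreated siRNA replicates 1 and 3, which overlapped in level, so its fall under TSA had no counterpart there (difference of effects -1.45, adjusted p = 2.28e-05). IL6 read 10.82, 10.85 and 10.74 against 9.91 and 9.86, a smaller fall than under TSA (difference -1.35, adjusted p = 2.04e-05). For CXCL2 (-1.32, adjusted p = 2.04e-05) and LIF (-1.13, adjusted p = 0.000182) the difference had the same sign. The outlying array, untreated siRNA replicate 2, read 6.46 for IL6 and 8.99 for CXCL3, far below its replicates, and with it the differences were -0.21 and -0.87 (adjusted p = 0.953 and 0.801). It read 10.73 for CXCL2, near its replicates. By the interaction over 11 arrays, the NF-kB list and the ERK feedback list each had 6 members, called under TSA or not, with a more negative effect there. Each also had 1 member with a more positive one. Over all genes these shares were 1.39% and 0.42%.

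Further genes whose fall was larger with TSA were TFPI (-1.39), PDE4B (-1.17) and EREG (-1.06). PDE4B read 9.71, 9.76 and 9.81 on untreated controls and 9.79 and 9.70 on untreated siRNA replicates 1 and 3, and DUSP4 11.06, 11.03 and 10.99 against 11.06 and 11.04, both without a fall. For EGR3 the difference of effects was -1.21, but it read 4.64, 4.85 and 4.97 on untreated controls and 4.66 and 4.85 on those siRNA replicates, levels at which few genes were called, so a fall could hardly have been seen there. On the outlying array EREG read 10.40, below all other untreated arrays. On the side of the rises, CDC6 read 9.11, 9.12 and 9.16 against 9.18 and 9.20 in untreated cells, so that its rise appeared under TSA (difference 0.67, adjusted p = 0.00121), and E2F7 (0.76) and AQP3 (0.60) rose more with TSA than without. ELOVL4 had a difference of 0.74, but its untreated arrays were as dim, at 4.58, 4.62 and 4.78 and 4.79 and 4.54. With all 12 arrays the difference was still called for CDC6 (adjusted p = 0.0109), CXCL2 (0.00450), TFPI (0.00450), LIF (0.00776) and PDE4B (0.0271).

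**Figure D4:**
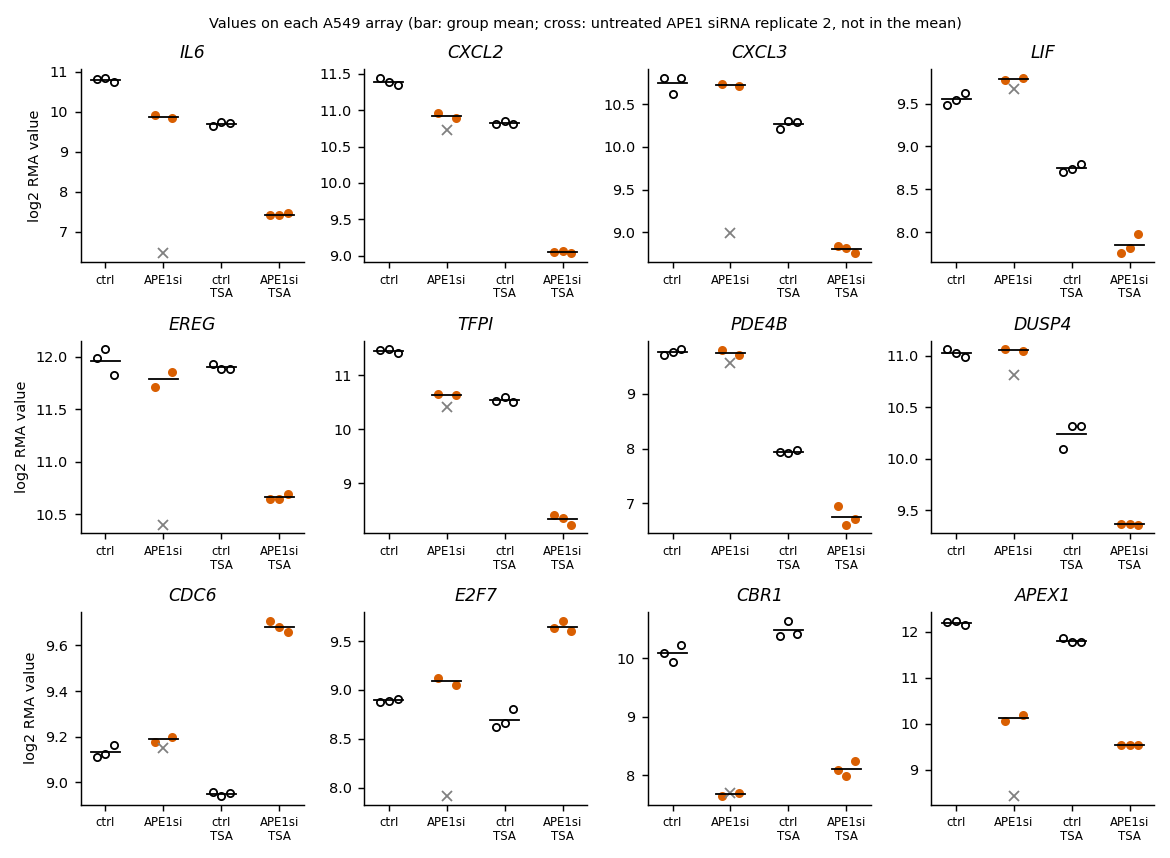
Log2 RMA value on each A549 array for 12 genes in the 4 groups (control and APE1 siRNA, without and with TSA), with a bar at the group mean and a cross for the outlying untreated APE1 siRNA replicate 2, which is not in the mean. The drop from control to siRNA is larger with TSA for IL6, CXCL2, CXCL3, LIF, EREG, TFPI, PDE4B and DUSP4, similar for CBR1 and APEX1, and a rise appears with TSA for CDC6 and E2F7.

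A few genes changed in opposite directions. Called in both and opposite in sign were 16 genes, 14 of them lower with TSA and higher without. BHLHE40, a transcriptional repressor of the circadian clock, was at -0.45 with TSA and 0.78 without, IFI16 at -0.43 and 0.62, RSPO3, a Wnt agonist, at -0.74 and 0.40, and SLC7A11 at -0.36 and 0.43. IFI16 kept its difference with all 12 arrays (adjusted p = 0.00634), while BHLHE40, RSPO3 and SLC7A11 did not (adjusted p = 0.951, 0.801 and 0.995). These genes were picked from the 16 after their values were seen.

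**Figure D5:**
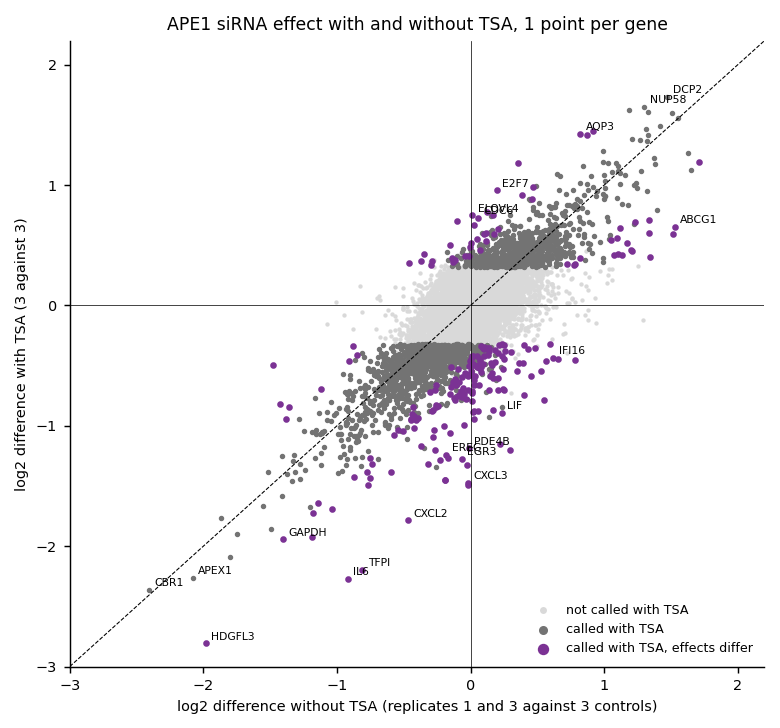
Log2 difference between APE1 siRNA and control with TSA (vertical axis) against that without TSA (horizontal axis, untreated siRNA replicates 1 and 3), 1 point per gene, with the dashed line at equal effects. Genes called with TSA whose effects differ are purple; CXCL3 and PDE4B lie near 0 on the horizontal axis and well below it on the vertical axis.

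Probe sets of a gene did not always read alike. Of the 1407 called genes with several probe sets, 565 had another probe set called in the same direction and 32 one called in the opposite direction. CCDC88A, an actin-binding protein, was lower at its brightest probe set (-0.68) and higher at another (1.32). The largest fall of any probe set was one for ARSB, a lysosomal sulfatase, at 7.23, 6.95 and 7.09 against 3.77, 4.21 and 3.40 (-3.30), while 3 other probe sets of ARSB were not called. RECK, a membrane inhibitor of metalloproteinases, was higher at a dimmer probe set (1.27) and at -0.058 at its brightest.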

How the data were processed

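RNA was measured on Affymetrix HG-U133 Plus 2.0 arrays. The deposited values are log2 values per probe set, for which the authors ran RMA in affy (background correction, then quantile normalization); the sources used here give no tool versions. The 4 deposited comparison tables, which hold the authors' log2 fold changes and p-values, were not used. The 6 TSA-treated A549 arrays were fitted alone in R 4.3.3 with limma 3.58.1 (lmFit and eBayes, APE1 siRNA minus control), leaving out 62 control probe sets. The Benjamini-Hochberg adjustment ran over the remaining 54613. The platform annotation pairs 41091 of these with 1 symbol, 1801 with several and 11721 with none. Each gene was represented by the brightest of its probe sets, by mean over the 6 arrays. The number of arrays limits the precision. The interaction was fitted over 11 A549 arrays, without untreated APE1 siRNA replicate 2, and also over 12. The procedure was tested on simulated data.

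The members and the 44 gene lists were chosen with earlier results of these data known. Named genes are the 12 largest rises and falls among called genes with separate groups, APEX1, genes named in the study, the members of each list that had the lowest adjusted p (4 at most), and the 5 largest changes in each direction among other probe sets; further list members were chosen after their values were seen. Promoters came from RefSeq. Alternatives were other normalizations, filters, fits, probe set rules and thresholds, and each array left out. The counts of 1 gene list are not reported here.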

Additional observations from a re-analysis of the deposited data

Results flagged for a closer look

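The following 37 of the named genes were set aside because the effect of APE1 siRNA with TSA differed from that without TSA by the interaction test over 11 arrays; values are the log2 effect with TSA minus that without. For 25 genes the effect was more negative with TSA. Among cytokines and chemokines these were CXCL3 (-1.45), IL6 (-1.35), CXCL2 (-1.32) and LIF (-1.13). Among growth factor and ERK genes they were EGR3 (-1.21), EREG (-1.06), DUSP4 (-0.904), PHLDA1 (-0.656), TGFB2 (-0.541) and NRG1 (-0.508), and among cyclic AMP and G protein genes PDE4B (-1.17), PDE4D (-0.658) and GNAQ (-0.547). Metabolic and transport genes were ABCG1 (-0.873), SLC7A11 (-0.79), ELOVL6 (-0.74), TXNIP (-0.559) and GAPDH (-0.538). The others were TFPI (-1.39), IFI16 (-1.05), HDGFL3 (-0.822), OCLN (-0.569), HDAC9 (-0.53), GBP3 (-0.503) and CNOT2 (-0.409). EGR3 was so dim without TSA, at 4.64 to 4.97, that a fall could hardly have been seen there.

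For 12 genes the effect was more positive with TSA. The cell cycle and repair genes were E2F7 (0.759), CDC6 (0.674), EXO1 (0.514), BUB1 (0.488) and MCM5 (0.426). The others were ELOVL4 (0.738), AQP3 (0.605), HMGA2 (0.545), IL1RAP (0.532), TIMP2 (0.519), GADD45B (0.509) and BNIP3L (0.428). HMGA2 was read at its brightest probe set, and dimmer ones were called lower with TSA. ELOVL4 was as dim without TSA, at 4.54 to 5.08. ABCG1 and GBP3 were higher after APE1 siRNA in both conditions, by less with TSA, and BNIP3L and TIMP2 were lower in both, by less with TSA. With all 12 A549 arrays the adjusted p stayed under 0.05 for 7 of the 37, TFPI, CXCL2, PDE4B, LIF, IFI16, PHLDA1 and CDC6.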

How the results depend on the processing

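No gene called in the main fit was called in the opposite direction by another fit, though a change of sign without a call was not counted. By the rule of any probe set, 32 of the called genes also had a probe set called the other way. A fit of all 12 A549 arrays, which takes in the outlying array, called 378 higher and 652 lower, all among the genes already called, and a fit of 11 arrays 843 and 1253. Averaging all probe sets of each gene called 449 higher and 975 lower, any probe set of a gene 1104 and 1803, and a fold of at least 2 left 41 and 111. A further quantile normalization called 990 and 1046, which raised the share of higher calls from 40.5% to 48.6%. Leaving out 1 array at a time gave 700 to 856 higher and 1029 to 1238 lower genes. MACROH2A1 turned from 0.017 to -0.36 with the mean of its probe sets (adjusted p = 0.00593 in limma). Of the 181 named genes tested, 62 lost their call in the fit of 12 arrays and 42 with the mean of probe sets. In the fit of 11 arrays, without the outlying one, all 181 kept their result.

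The 358 genes with a difference between the effects with and without TSA became 23 with all 12 arrays. Leaving out 1 array at a time gave 87 to 361: 118 and 87 without untreated siRNA replicates 1 and 3, and 205, 203 and 192 without untreated control replicates 1, 2 and 3. These omissions were chosen after seeing the data. The labels tie same-numbered arrays of the TSA-treated groups by number alone. Their deviations correlated at 0.264, 0.087 and 0.024, and 2 of the control arrays correlated most with the siRNA array of their own number. Whether these arrays were paired was not tested. With the replicate number as a block, 815 genes were higher and 1210 lower, of which 801 and 1170 were already called, and 341 had a difference between effects. The number of arrays, 3 in a group, limits what small differences can be called, and most dim genes were not called.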

Other observations

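Calls were spread over the chromosomes. The share of genes lower after APE1 siRNA with TSA ran from 3.86% on chromosome 7 to 9.15% on chromosome 15, and the share higher from 2.21% on chromosome 20 to 5.99% on chromosome 13. Of the probe sets with several symbols or none, which belong to no gene count above, 176 were higher and 367 lower.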
